A study of Mus musculus with 12 samples.

Results

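The matrix metalloproteinases (Mmp genes), the ADAMTS proteases (Adamts genes) and the tissue inhibitors of metalloproteinases (Timp genes) were followed in embryonic mouse lungs. Apart from controls, these lungs had signalling through the receptor FGFR2b blocked, or its ligand gene Fgf10 switched on, for some hours. Members were taken by gene symbol alone, every Mmp gene, every Adamts gene and Timp1 to Timp4 that the array names, which gave 46 of 20738 genes: 23 Mmp genes, 19 Adamts genes and 4 Timp genes. They were read by 80 array features, with 1 feature for 28 genes and several for 18, and the brightest feature over all arrays stood for each gene.

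RNA from whole lungs of the C57bl/6J strain, taken from single embryonic lungs at an early branching stage, was hybridised to 12 one-colour Cy3 microarrays, 3 for each of 4 groups. The 2 loss of function groups, LOF 9 h and LOF 6 h, were Rosa26rtTAtet(O)solubleR2b lungs collected 9 and 6 hours after doxycycline, which switches on a secreted decoy of FGFR2b that binds the ligands of the receptor. The gain of function group, GOF 9 h, was Rosa26rtTAtet(O)fgf10 lungs collected 9 hours after doxycycline, which switches on the ligand gene Fgf10. The labels call the control lungs wild-type and untreated, whereas the methods of the study describe littermates that carry the transactivator and received doxycycline, harvested at either time. The Rosa26 locus drives the transactivator in all cells, so neither transgene was limited to a cell type. The deposited values are log2 signals, and the middle of all features on each array lay at a signal of 2.98. Arrays of a group had a mean correlation of 0.982 to 0.986 with each other over all genes. Etv5, a transcription factor switched on by FGF signalling, read 10.29, 10.40 and 10.21 in LOF 9 h lungs, 10.65, 10.99 and 10.74 in LOF 6 h lungs, 12.61, 12.55 and 12.98 in GOF 9 h lungs and 12.58, 12.54 and 12.87 in control lungs, so all 6 LOF arrays lay below all control arrays while the GOF and control arrays overlapped. All 6 epithelial and all 6 mesenchymal marker genes were above the array median on every array. In RNA from whole lungs, fewer cells of a type and less RNA per cell cannot be told apart.

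Mmp and ADAMTS enzymes are zinc proteases that cut the proteins around cells. They are made as inactive precursors, are opened by other proteases, often of the furin family, and are blocked by TIMPs that sit in the active site. In a branching lung, cutting and rebuilding of the basement membrane around growing epithelial buds and of the collagen at the clefts between them is the process in which these enzymes are best known. Many of the secreted Mmp genes lie side by side in the mouse genome and carry an AP-1 site and a TATA box close before their start, and these genes are well known for being switched on by inflammatory signals and injury.

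The promoters of that gene cluster are shown because its members were the dimmest block among the proteases. RefSeq promoter sequences (build GRCm38.p6) were matched for 32 of the 46 members, and the 250 bases before the start were searched on both strands. A member was counted if any of its promoter entries held the letters, whereas the percentages are of single entries. The 10 clustered genes, Mmp13, Mmp12, Mmp1b, Mmp3, Mmp1a, Mmp10, Mmp8, Mmp27, Mmp20 and Mmp7, follow each other on chromosome 9 with no other protein-coding gene between them. The AP-1 letters TGAGTCA or TGACTCA, the same site read from the other strand, stood in 7 of these 10 and in 0 of the 22 other matched members, against 4.46% of all 32851 promoter entries. For Mmp12 they stood only before an alternative start that lies inside the annotated gene, and not before its annotated start. The 100 bases before the start of these 7, with the AP-1 letters in capitals, read as follows.
Mmp13, chr9:7272414-7272513, plus strand: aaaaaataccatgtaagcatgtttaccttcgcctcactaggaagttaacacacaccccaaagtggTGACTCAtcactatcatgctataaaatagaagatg
Mmp12 (alternative start), chr9:7347274-7347373, plus strand: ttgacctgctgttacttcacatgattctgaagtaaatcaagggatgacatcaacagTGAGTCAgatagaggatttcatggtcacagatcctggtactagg
Mmp1b, chr9:7388027-7388126, minus strand: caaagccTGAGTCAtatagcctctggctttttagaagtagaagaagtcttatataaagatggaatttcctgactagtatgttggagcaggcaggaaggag
Mmp3, chr9:7445722-7445821, plus strand: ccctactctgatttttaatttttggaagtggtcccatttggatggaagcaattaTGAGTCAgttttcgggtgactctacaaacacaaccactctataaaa
Mmp1a, chr9:7464041-7464140, plus strand: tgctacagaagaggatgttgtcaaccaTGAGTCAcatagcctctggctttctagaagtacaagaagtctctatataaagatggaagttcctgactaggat
Mmp10, chr9:7502242-7502341, plus strand: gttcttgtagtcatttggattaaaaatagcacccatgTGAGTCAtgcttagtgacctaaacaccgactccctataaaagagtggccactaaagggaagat
Mmp7, chr9:7691990-7692089, plus strand: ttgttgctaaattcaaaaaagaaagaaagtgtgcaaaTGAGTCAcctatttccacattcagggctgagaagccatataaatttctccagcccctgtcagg

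The TATA box letters TATAAA stood in 7 of the 10 clustered promoters, in 2 of the 22 others and in 12.37% of all entries. The site of ETS factors, the family to which Etv5 belongs, searched as AGGAAG, stood in 6 of the 10, in 7 of the 22 others and in 29.48% of all entries. The GC box letters GGGCGG gave the opposite split, with 0 of the 10 clustered promoters, 16 of the 22 others and 32.74% of all entries. For Adamts18 the matched start is an alternative one, and the bases before it lie inside the annotated gene. The 250 bases before the start of the 3 members whose arrays separated most clearly in the comparisons, Timp2, Mmp11 and Adamts18, follow, with the GC box letters in capitals.
Timp2, chr11:118355412-118355661, minus strand: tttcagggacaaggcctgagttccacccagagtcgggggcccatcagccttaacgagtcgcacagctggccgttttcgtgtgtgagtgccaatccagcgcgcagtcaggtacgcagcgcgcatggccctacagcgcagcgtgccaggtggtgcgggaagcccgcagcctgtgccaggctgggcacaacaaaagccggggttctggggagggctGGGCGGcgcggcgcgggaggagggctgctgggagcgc
Mmp11, chr10:75932503-75932752, minus strand: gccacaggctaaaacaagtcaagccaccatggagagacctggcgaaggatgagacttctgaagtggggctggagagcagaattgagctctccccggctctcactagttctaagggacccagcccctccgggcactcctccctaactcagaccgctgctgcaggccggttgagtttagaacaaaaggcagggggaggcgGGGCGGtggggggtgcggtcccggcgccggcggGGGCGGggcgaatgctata
Adamts18, chr8:113848840-113849089, minus strand: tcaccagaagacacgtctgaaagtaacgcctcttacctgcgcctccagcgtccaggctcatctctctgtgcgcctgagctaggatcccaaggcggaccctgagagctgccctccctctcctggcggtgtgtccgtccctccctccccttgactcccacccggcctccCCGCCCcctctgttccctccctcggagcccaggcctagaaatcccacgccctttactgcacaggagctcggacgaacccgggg

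Signal differed widely among members. In all, 21 members lay above the array median on all 12 arrays, 17 on some arrays and 8 on none, and probe brightness is not a measure of which gene has more RNA. The 10 clustered Mmp genes had mean signals of 2.08 to 2.83 and single values of 1.55 to 4.23, and 0 of the 10 were above the array median on all arrays, whereas 21 of the 36 other members were. Of the 4 fibrillar collagenases (Mmp1a, Mmp1b, Mmp8 and Mmp13), enzymes that cut intact collagen, none was above the median throughout. Among the 7 proteoglycan-cleaving Adamts genes, 5 were above it on every array, as were 5 of 9 other Adamts genes, 2 of 3 procollagen N-proteinases and 3 of 6 membrane-type Mmp genes. Differences in dim members are given as measured, but the signal there carries a large part of background, and their median standard error of 0.36 log2 against control compares with 0.27 in the 21 brighter members.

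**Figure D1:**
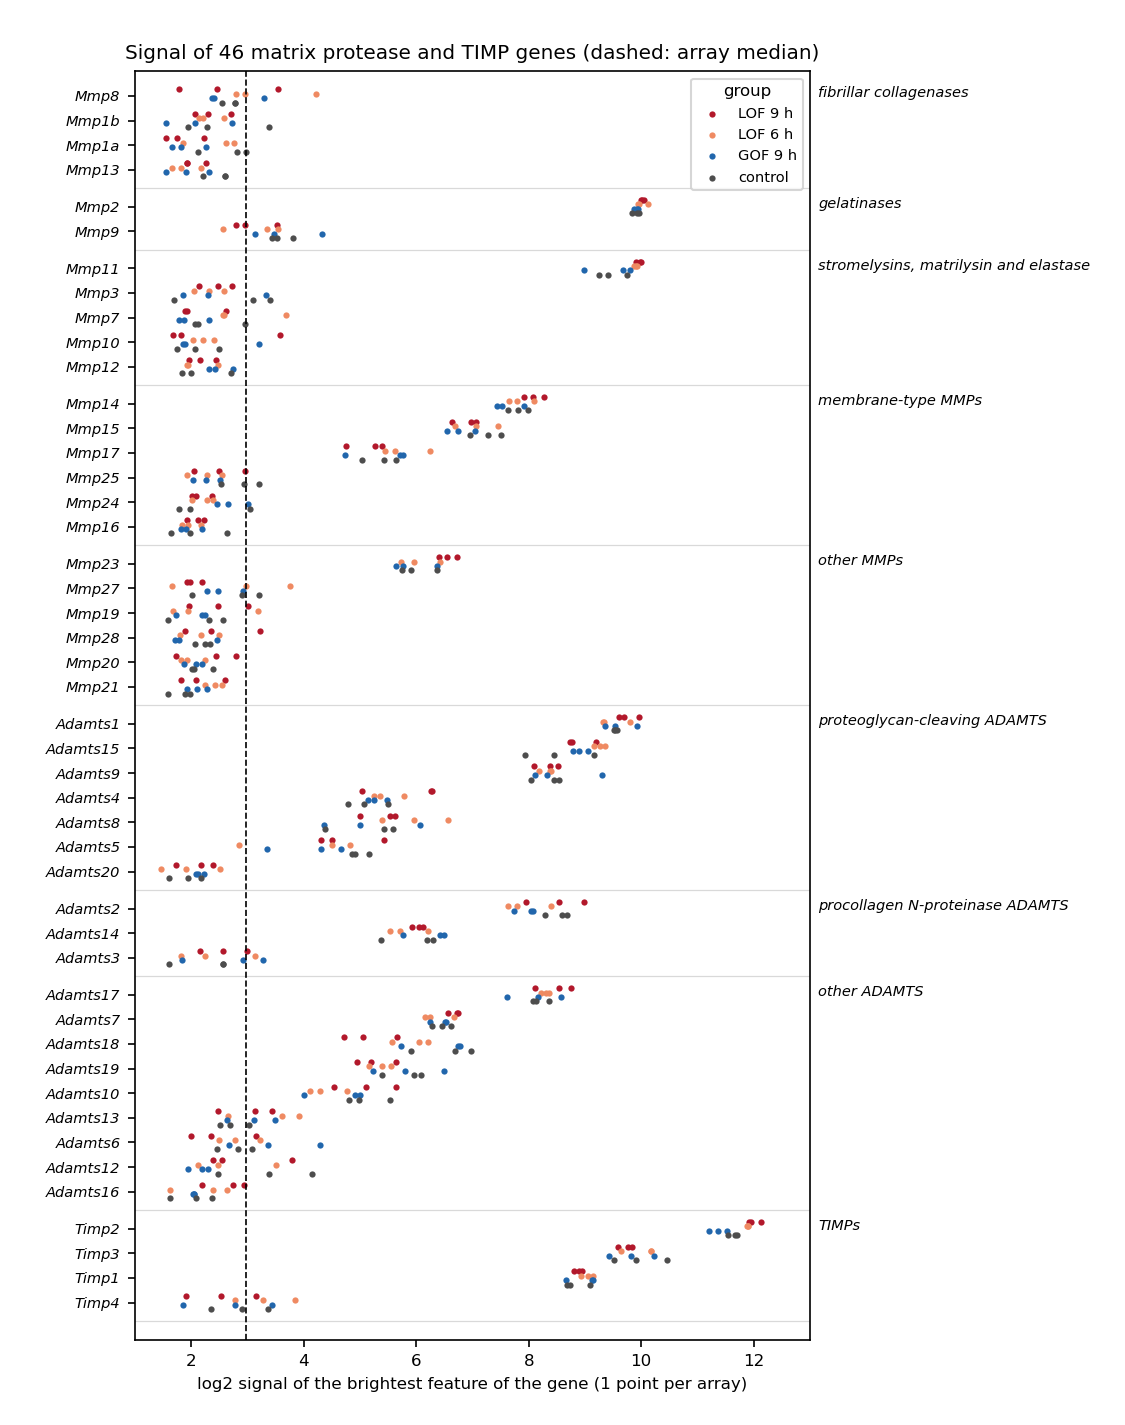
Log2 signal of the brightest feature of each of the 46 members, 1 point per array and 1 colour per group, grouped by the role of the protein, with the array median of 2.98 dashed. The 21 genes to the right of the line on all arrays include Timp2, Mmp2, Timp3, Mmp11 and Adamts1, while the fibrillar collagenases lie mostly to its left.

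No member passed an adjusted p of 0.05 in any comparison (limma across all 20738 genes, Benjamini-Hochberg adjustment, 3 arrays per group). The same test called 0.0723% of all genes in LOF 9 h against control, 0.0723% in LOF 6 h against control, 0% in GOF 9 h against control, 0.0482% for both LOF times against control, 0.0627% in LOF 9 h against LOF 6 h, 0.28% in LOF 9 h against GOF 9 h and 0.265% for any difference among the 4 groups. At these rates fewer than 1 call would be counted among 46 genes. At an unadjusted p under 0.05, 5 members (10.9%, against 7.92% of all genes) were counted in LOF 9 h lungs, 4 (8.7%, against 9.36%) in LOF 6 h lungs and 4 (8.7%, against 5.15%) in GOF 9 h lungs, each compared with the same 3 control arrays. The count was 6 (13%, against 8.27%) for both LOF times against control, 1 (2.17%, against 10.2%) in LOF 9 h against LOF 6 h, 5 (10.9%, against 11.9%) in LOF 9 h against GOF 9 h and 2 (4.35%, against 11.7%) for any difference among groups.

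The median of all 46 members, 25 of them dim on at least 1 array, differed from control by less than its spread over arrays. Of the 46, 23 had a positive and 23 a negative difference in LOF 9 h lungs, within a range of -1.38 to 0.74. In LOF 6 h lungs 24 were positive and 22 negative, within -0.92 to 0.84, and in GOF 9 h lungs 21 were positive and 25 negative, within -1.20 to 0.64. The median log2 difference from control in LOF 9 h lungs was 0.0015 for the members and -0.0002 for all genes. In LOF 6 h lungs it was 0.032 for the members and 0.025 for all genes, and in GOF 9 h lungs -0.054 for the members and 0.002 for all genes. The pooled SD of the members' median over arrays was 0.09, larger than each of these. For the 21 members above the array median on all arrays, the median was 0.11 in LOF 9 h lungs (13 positive). It was 0.032 in LOF 6 h lungs (12 positive) and 0.0062 in GOF 9 h lungs (11 positive). The pooled SD over arrays was 0.07 for these brighter members, below their LOF 9 h median. The SDs of 0.09 and 0.07 describe single arrays, whereas the medians compare means of 3 arrays, so setting them side by side is no test. No median of equally bright genes was set beside these 21. In LOF 9 h lungs, 5 members lay above all control arrays (10.9%, against 7.61% of all genes), Timp2, Mmp11, Mmp2, Mmp23 and Adamts1, all of them among the 21 brighter members, and 1 lay below them, Adamts18 (2.17%, against 7.84%). In LOF 6 h lungs, 4 lay above (8.7%, against 8.91%), Timp2, Mmp11, Mmp8 and, on its brightest feature only, Mmp21, and 3 below (6.52%, against 7.51%), Adamts10, Mmp13 and, on its brightest feature only, Adamts5. The second Adamts5 feature differed by 0.32 the other way there, and the mean of both, at -0.30, overlapped with control.

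The precision of 3 arrays per group sets what could have been seen. Of the 21 brighter members, the 95% interval of the difference from control stayed within 1 log2 unit either way for 16 in LOF 9 h lungs, 13 in LOF 6 h lungs and 18 in GOF 9 h lungs. For Mmp2, the gelatinase that cuts basement membrane collagen, the interval ran from -0.13 to 0.35 in LOF 9 h lungs, from -0.14 to 0.34 in LOF 6 h lungs and from -0.23 to 0.25 in GOF 9 h lungs. A doubling or a halving of the Mmp2 signal lay outside these intervals, whereas for Adamts8 the interval in LOF 6 h lungs ran from -0.20 to 1.89.

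**Figure D2:**
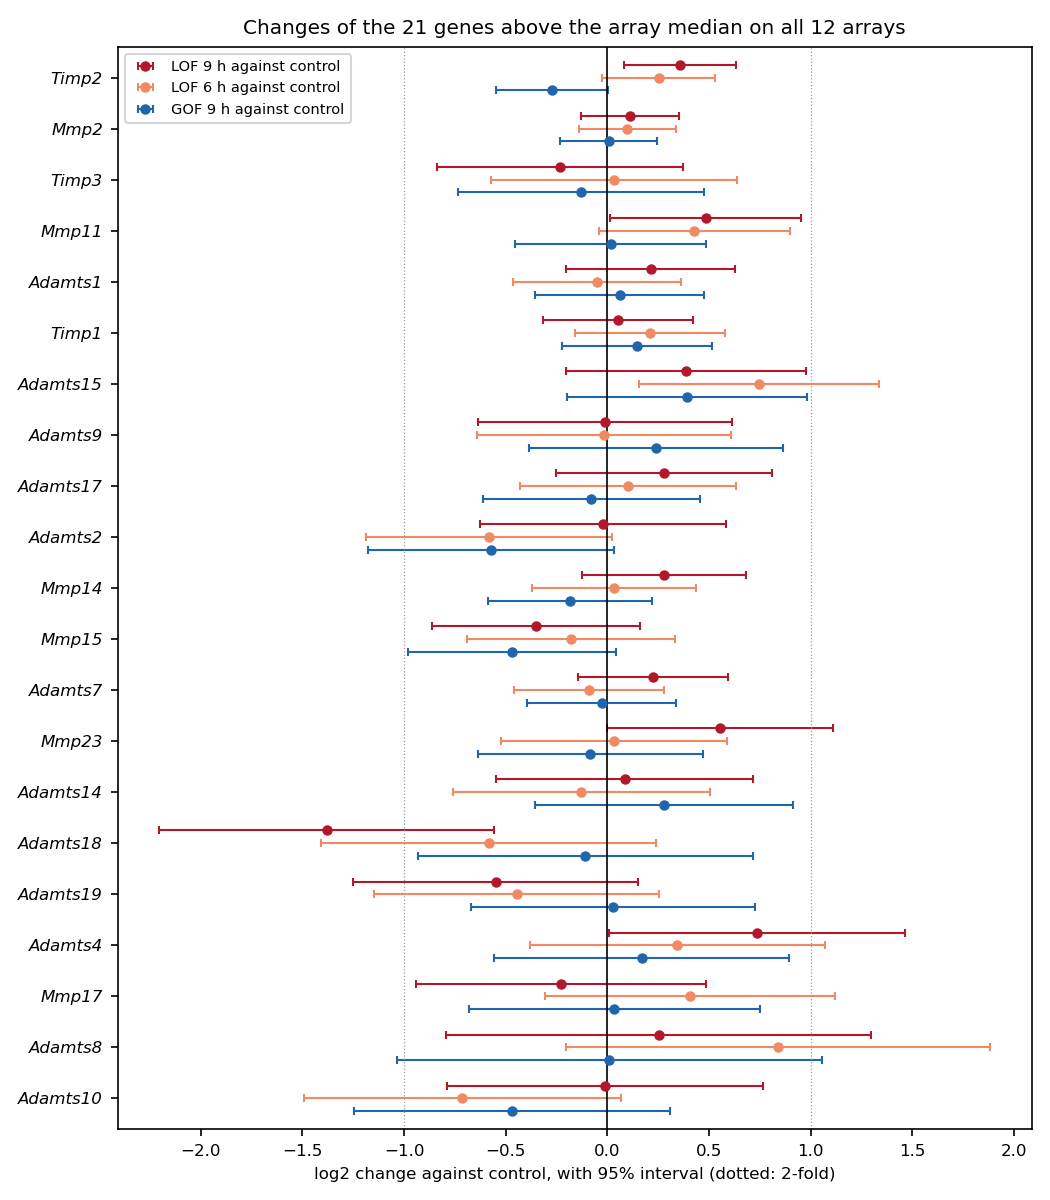
Log2 difference from control with its 95% interval for the 21 members above the array median on all 12 arrays, for LOF 9 h, LOF 6 h and GOF 9 h lungs, each against the same 3 control arrays. Most intervals include 0, those of Timp2, Mmp11, Adamts4 and Adamts18 in LOF 9 h lungs and of Adamts15 in LOF 6 h lungs do not, and no difference passed the adjusted threshold.

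Of the inhibitors, Timp2 showed the clearest ordering of groups among the 46 members. TIMP-2 blocks most Mmp enzymes and also, at the cell surface, holds pro-Mmp2 on Mmp14 so that it can be opened. Its log2 signal was 12.12, 11.95 and 11.92 in LOF 9 h lungs, 11.90, 11.89 and 11.87 in LOF 6 h lungs, 11.21, 11.52 and 11.37 in GOF 9 h lungs and 11.71, 11.54 and 11.67 in control lungs. All 6 LOF arrays lay above all control arrays, and all GOF arrays lay below them. The log2 difference from control was 0.36 ± 0.12 in LOF 9 h lungs (SE, n = 3 each, limma adjusted p = 0.479), 0.25 ± 0.12 in LOF 6 h lungs (limma adjusted p = 0.585) and -0.27 ± 0.12 in GOF 9 h lungs (limma adjusted p = 0.955). Between LOF 9 h and GOF 9 h lungs the difference was 0.63 ± 0.12, a 1.55-fold higher signal in LOF 9 h lungs, with a 95% interval of 0.35 to 0.91 (limma adjusted p = 0.0728). It passed the threshold once genes under the 25th percentile of mean signal were left out (limma adjusted p = 0.0407), and it did not with the mean of both Timp2 features (0.44 ± 0.14, limma adjusted p = 0.257). The second feature differed from control by 0.12 in LOF 9 h lungs, 0.24 in LOF 6 h lungs and -0.12 in GOF 9 h lungs, the same directions as the first. With the mean of both features the LOF 6 h arrays still lay above all control arrays, by 0.24, while the LOF 9 h arrays (0.24) and the GOF 9 h arrays (-0.20) overlapped with control.

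The other inhibitors gave overlapping groups. Timp3, the inhibitor bound to the matrix, read 9.84, 9.58 and 9.77 in LOF 9 h lungs, 10.17, 9.65 and 10.18 in LOF 6 h lungs, 9.43, 9.82 and 10.24 in GOF 9 h lungs and 9.90, 10.46 and 9.52 in control lungs. Timp1, a secreted inhibitor, read 8.89, 8.94 and 8.81 in LOF 9 h lungs, 8.93, 9.05 and 9.14 in LOF 6 h lungs, 8.66, 9.14 and 9.12 in GOF 9 h lungs and 8.73, 9.09 and 8.67 in control lungs. For both genes the arrays of every group overlapped with the control range. Timp4 was dim, at 2.52, 1.90 and 3.15 in LOF 9 h lungs, 3.28, 2.77 and 3.85 in LOF 6 h lungs, 2.78, 1.85 and 3.44 in GOF 9 h lungs and 2.36, 3.37 and 2.90 in control lungs. The 95% interval of the LOF 9 h difference from control was -0.32 to 0.42 for Timp1 and -0.84 to 0.37 for Timp3, so a 2-fold difference lay outside both.

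Among the membrane-type enzymes, which are anchored at the cell surface, Mmp14 activates pro-Mmp2. Mmp14 read 7.92, 8.27 and 8.08 in LOF 9 h lungs, 7.64, 8.09 and 7.79 in LOF 6 h lungs, 7.43, 7.91 and 7.53 in GOF 9 h lungs and 7.81, 7.63 and 7.98 in control lungs. The lowest LOF 9 h array lay just above the highest GOF 9 h array, and both groups overlapped with control. The difference between LOF 9 h and GOF 9 h lungs was 0.46 ± 0.18 (limma adjusted p = 0.343). Mmp17, a membrane enzyme held by a lipid anchor, read 4.75, 5.39 and 5.27 in LOF 9 h lungs, 6.24, 5.45 and 5.62 in LOF 6 h lungs, 4.73, 5.76 and 5.71 in GOF 9 h lungs and 5.64, 5.03 and 5.43 in control lungs. All LOF 9 h arrays of Mmp17 lay below all LOF 6 h arrays, with a difference of -0.63 ± 0.32 (limma adjusted p = 0.549), which was -0.40 without LOF 6 h replicate 1. Mmp24 and Mmp25 were dim. Mmp25 read 2.50, 2.96 and 2.05 in LOF 9 h lungs, 2.55, 2.28 and 1.92 in LOF 6 h lungs, 2.51, 2.27 and 2.04 in GOF 9 h lungs and 2.52, 2.93 and 3.21 in control lungs. Mmp24 read 2.09, 2.36 and 2.02 in LOF 9 h lungs, 2.39, 2.02 and 2.28 in LOF 6 h lungs, 3.02, 2.66 and 2.45 in GOF 9 h lungs and 1.79, 1.97 and 3.04 in control lungs. The GOF 9 h arrays of Mmp25 lay below all control arrays and those of Mmp24 above all LOF 9 h arrays, and neither difference passed the adjusted test.

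Of the gelatinases, only Mmp2 was bright. It read 10.01, 10.04 and 10.00 in LOF 9 h lungs, 9.96, 10.12 and 9.94 in LOF 6 h lungs, 9.88, 9.92 and 9.94 in GOF 9 h lungs and 9.92, 9.84 and 9.96 in control lungs. The 12 arrays had an SD of 0.07, the smallest of all 46 members. Mmp9, the other gelatinase, was measured by 10 features, of which 7 lay below control in LOF 9 h lungs, 7 in LOF 6 h lungs and 7 in GOF 9 h lungs, with single differences from -0.85 to 0.90 in LOF 9 h lungs.

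Mmp11, a stromelysin best known from connective tissue cells beside epithelium, was the bright Mmp gene with the clearest split between LOF and control lungs. Its log2 signal was 9.97, 9.90 and 9.99 in LOF 9 h lungs, 9.91, 9.92 and 9.87 in LOF 6 h lungs, 8.98, 9.68 and 9.80 in GOF 9 h lungs and 9.24, 9.76 and 9.42 in control lungs. All 6 LOF arrays lay above all control and all GOF arrays, and they lay closer together than the arrays of the other groups. The difference from control was 0.48 ± 0.21 in LOF 9 h lungs (limma adjusted p = 0.617), 0.43 ± 0.21 in LOF 6 h lungs (limma adjusted p = 0.582) and 0.02 in GOF 9 h lungs. The second Mmp11 feature gave 0.60 in LOF 9 h lungs, 0.40 in LOF 6 h lungs and 0.01 in GOF 9 h lungs. Over both LOF times, 2 members, Mmp11 and Timp2, lay above control on all 6 arrays (4.35%, against 2.48% of all genes) and 0 lay below on all 6 (against 2.14%). Mmp7, the matrilysin of epithelia, was dim and read 1.90, 1.93 and 2.62 in LOF 9 h lungs, 3.68, 2.56 and 2.58 in LOF 6 h lungs, 1.79, 1.87 and 2.31 in GOF 9 h lungs and 2.07, 2.95 and 2.12 in control lungs.

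The remaining Mmp genes named by the smallest p were dim or close to it, except Mmp23. Mmp23 read 6.72, 6.55 and 6.41 in LOF 9 h lungs, 6.42, 5.97 and 5.73 in LOF 6 h lungs, 6.37, 5.77 and 5.64 in GOF 9 h lungs and 5.74, 6.37 and 5.91 in control lungs. The LOF 9 h arrays lay above all control and GOF arrays, with a difference of 0.55 ± 0.25 from control (limma adjusted p = 0.633) and of 0.64 ± 0.25 from GOF 9 h lungs (limma adjusted p = 0.343). Mmp13, a collagenase, read 2.26, 1.93 and 1.92 in LOF 9 h lungs, 2.17, 1.82 and 1.66 in LOF 6 h lungs, 1.91, 1.55 and 2.32 in GOF 9 h lungs and 2.60, 2.20 and 2.60 in control lungs. Mmp1a, another collagenase, read 2.22, 1.75 and 1.56 in LOF 9 h lungs, 2.75, 1.85 and 2.62 in LOF 6 h lungs, 1.65, 2.27 and 1.81 in GOF 9 h lungs and 2.81, 2.97 and 2.11 in control lungs. Mmp21 read 2.08, 1.81 and 2.61 in LOF 9 h lungs, 2.54, 2.42 and 2.25 in LOF 6 h lungs, 2.09, 2.29 and 1.92 in GOF 9 h lungs and 1.88, 1.59 and 1.98 in control lungs. All of these values of Mmp13, Mmp1a and Mmp21 lay below the array median. The second Mmp21 feature differed from control by -0.62 in LOF 9 h and -0.32 in LOF 6 h lungs, against 0.35 and 0.58 on the brightest, and with the mean of both features Mmp21 in LOF 6 h lungs differed by 0.13 and overlapped with control.

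**Figure D3:**
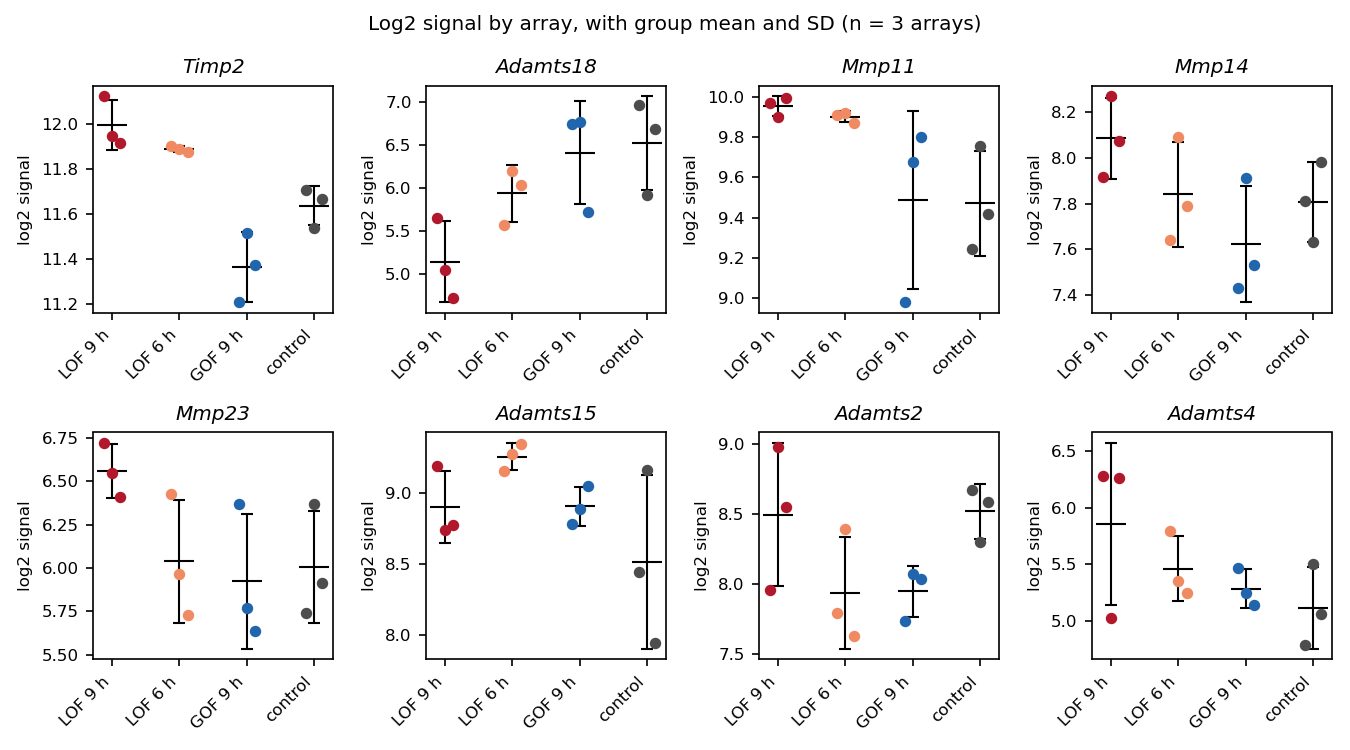
Log2 signal of 8 members on each array, with the mean and SD of the 3 arrays of a group, for LOF 9 h, LOF 6 h, GOF 9 h and control lungs. The LOF arrays of Timp2 and Mmp11 lie above all control arrays, the LOF 9 h arrays of Adamts18 lie below them, and the vertical axes differ in range and do not start at 0.

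Among the Adamts genes, Adamts18, which codes for an enzyme needed for normal branching in several mouse organs, had the largest difference in LOF 9 h lungs of the 46 members. It read 5.65, 5.05 and 4.72 in LOF 9 h lungs, 5.57, 6.21 and 6.04 in LOF 6 h lungs, 6.75, 6.77 and 5.73 in GOF 9 h lungs and 6.97, 5.92 and 6.68 in control lungs. All LOF 9 h arrays lay below all control and all GOF arrays, while the LOF 6 h arrays overlapped with control. The difference from control was -1.38 ± 0.37 in LOF 9 h lungs, 2.61-fold lower, with a 95% interval of -2.20 to -0.56 (limma adjusted p = 0.322). It was -0.58 in LOF 6 h lungs and -0.11 in GOF 9 h lungs. The LOF 9 h lungs differed from GOF 9 h lungs by -1.27 ± 0.37 (limma adjusted p = 0.197) and from LOF 6 h lungs by -0.80 ± 0.37 (limma adjusted p = 0.509). A single feature measured it, so no second feature could be set beside it.

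The proteoglycan-cleaving Adamts genes, whose enzymes cut aggrecan, versican and related molecules, differed among themselves. Adamts1 read 9.96, 9.70 and 9.60 in LOF 9 h lungs, 9.34, 9.33 and 9.80 in LOF 6 h lungs, 9.93, 9.35 and 9.53 in GOF 9 h lungs and 9.54, 9.56 and 9.52 in control lungs. Adamts15 read 9.19, 8.74 and 8.78 in LOF 9 h lungs, 9.15, 9.27 and 9.35 in LOF 6 h lungs, 8.78, 8.89 and 9.05 in GOF 9 h lungs and 8.44, 9.16 and 7.94 in control lungs. Its difference from control of 0.74 ± 0.27 in LOF 6 h lungs (limma adjusted p = 0.422) stood beside 3 control arrays that spanned more than any other group of that gene, and was 0.46 without control replicate 3. Adamts4 read 6.27, 5.03 and 6.26 in LOF 9 h lungs, 5.79, 5.36 and 5.25 in LOF 6 h lungs, 5.47, 5.25 and 5.14 in GOF 9 h lungs and 4.79, 5.51 and 5.07 in control lungs, with a difference of 0.74 ± 0.33 in LOF 9 h lungs (limma adjusted p = 0.625) that was 1.15 without LOF 9 h replicate 2. Of the 7 genes of this role, 5 had a positive and 2 a negative difference in LOF 9 h lungs, 4 and 3 in LOF 6 h lungs and 6 and 1 in GOF 9 h lungs.

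Adamts2, the procollagen N-proteinase that trims fibrillar procollagens before they assemble, read 7.96, 8.98 and 8.55 in LOF 9 h lungs, 7.79, 8.39 and 7.63 in LOF 6 h lungs, 7.74, 8.07 and 8.04 in GOF 9 h lungs and 8.67, 8.30 and 8.59 in control lungs. The GOF 9 h arrays lay below all control arrays, by -0.57 ± 0.27 on the log2 scale (limma adjusted p = 0.957), and the LOF 6 h lungs differed by -0.58 ± 0.27 (limma adjusted p = 0.556) with 1 array inside the control range. Both Adamts2 features were lower than control in GOF 9 h and in LOF 6 h lungs. In GOF 9 h lungs, 0 members lay above all control arrays (against 4.78% of all genes) and 5 lay below them, Timp2, Adamts2, Adamts5, Adamts12 and Mmp25 (10.9%, against 4.64%).

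Adamts10, Adamts12 and Adamts6 complete the members with the smallest p. Adamts10, which works on microfibrils, read 4.53, 5.10 and 5.64 in LOF 9 h lungs, 4.12, 4.77 and 4.29 in LOF 6 h lungs, 4.00, 4.91 and 4.997 in GOF 9 h lungs and 4.80, 5.53 and 4.98 in control lungs, so that all LOF 6 h arrays lay below all control arrays (-0.71 ± 0.35, limma adjusted p = 0.580). Adamts12 was dim and read 2.39, 2.55 and 3.78 in LOF 9 h lungs, 3.50, 2.48 and 2.11 in LOF 6 h lungs, 2.29, 2.19 and 1.94 in GOF 9 h lungs and 4.15, 2.47 and 3.39 in control lungs. Adamts6 was dim too and read 2.36, 3.15 and 1.99 in LOF 9 h lungs, 2.49, 2.79 and 3.23 in LOF 6 h lungs, 4.28, 2.67 and 3.36 in GOF 9 h lungs and 3.08, 2.83 and 2.47 in control lungs. The GOF 9 h difference of Adamts12 from control, -1.20 ± 0.50 (limma adjusted p = 0.955), rested on signals around the array median. It was -0.79 without control replicate 1, the second Adamts12 feature differed by 0.20 the other way, and the mean of both features differed by -0.50.

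The other bright members overlapped with control at each time and in GOF 9 h lungs. Mmp15, a membrane-type enzyme, averaged 6.89 ± 0.22 in LOF 9 h lungs, 7.07 ± 0.39 in LOF 6 h lungs, 6.78 ± 0.24 in GOF 9 h lungs and 7.25 ± 0.27 in control lungs (SD, n = 3 each). Adamts9, a proteoglycan-cleaving enzyme, averaged 8.33 ± 0.22 in LOF 9 h lungs, 8.32 ± 0.12 in LOF 6 h lungs, 8.58 ± 0.64 in GOF 9 h lungs and 8.34 ± 0.26 in control lungs, and its wide GOF spread came from 1 array at 9.30. Adamts17 averaged 8.47 ± 0.33 in LOF 9 h lungs, 8.30 ± 0.07 in LOF 6 h lungs, 8.11 ± 0.48 in GOF 9 h lungs and 8.19 ± 0.15 in control lungs. Adamts7, Adamts8, Adamts14 and Adamts19 completed the 21, and the widest interval among them was that of Adamts8.

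Adamts19 and Mmp9 had 10 features each and were singled out for that number, after their values had been seen. For Adamts19, all 10 features lay below control in LOF 9 h lungs (differences of -1.04 to -0.001) and all 10 in LOF 6 h lungs (-1.05 to -0.31), while 4 of 10 did in GOF 9 h lungs. The mean of the 10 features read 4.77, 5.03 and 5.16 in LOF 9 h lungs, 4.88, 4.56 and 4.87 in LOF 6 h lungs, 5.35, 4.96 and 5.85 in GOF 9 h lungs and 5.28, 5.50 and 5.33 in control lungs. All 6 LOF arrays of this mean lay below all control arrays, with differences of -0.38 ± 0.22 in LOF 9 h lungs (limma adjusted p = 0.746) and -0.60 ± 0.22 in LOF 6 h lungs (limma adjusted p = 0.442). The features of 1 gene share the same RNA samples, so their number adds no replicates. The features of a gene shared 1 direction in 8 of the 18 genes with several features in LOF 9 h lungs, 10 in LOF 6 h lungs and 8 in GOF 9 h lungs. Adamts5 was one of those that did not, at -0.88 on the brightest and 0.24 on the other feature in GOF 9 h lungs.

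**Figure D4:**
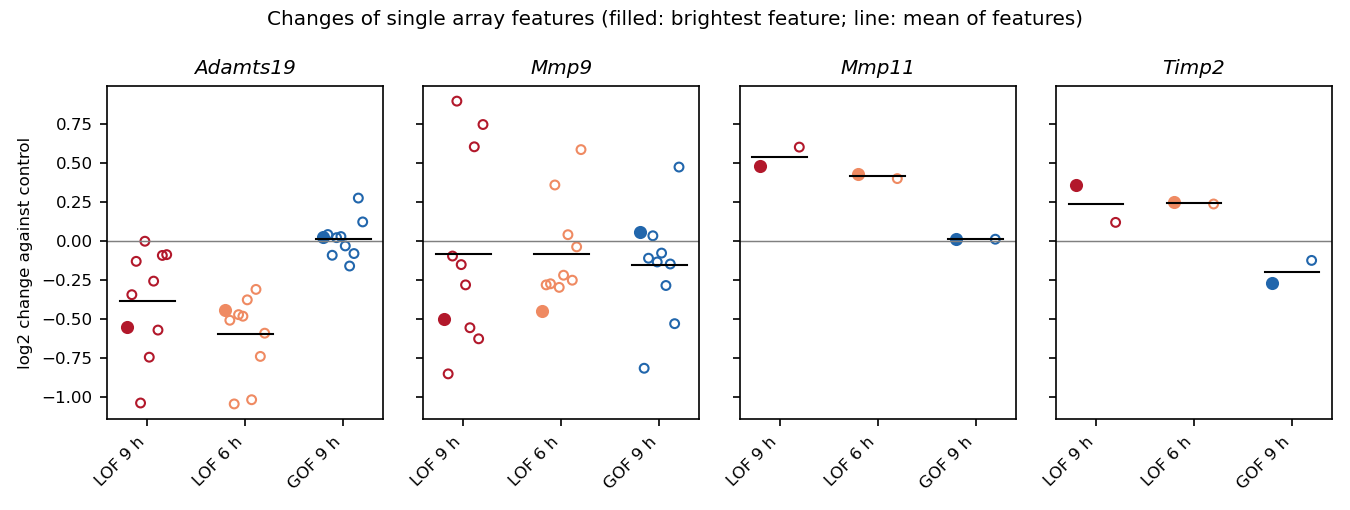
Log2 difference from control of each single array feature of Adamts19, Mmp9, Mmp11 and Timp2 in LOF 9 h, LOF 6 h and GOF 9 h lungs, with the brightest feature filled and the mean of the features as a line. All 10 Adamts19 features lie at or below 0 in both LOF groups, both Mmp11 features lie above 0 there, and the dim Mmp9 features scatter on both sides.

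Between LOF 9 h and LOF 6 h lungs, 1 member lay above on all arrays, Timp2 (2.17%, against 7.95% of all genes), and 1 below, Mmp17 (2.17%, against 9.66%). The Timp2 difference there was 0.11 on the brightest feature and -0.12 on the other, and with the mean of both it was -0.006 with overlapping arrays. Between LOF 9 h and GOF 9 h lungs, 8 lay above (17.4%, against 8.55%), Timp2, Mmp2, Mmp11, Mmp14, Mmp23, Adamts7, Adamts12 and Adamts16, and 3 lay below (6.52%, against 9.26%), Adamts18, Mmp24 and Mmp27. Of these, Adamts12, Adamts16, Mmp24 and Mmp27 were dim, and Adamts16 lay below the array median on every array. With the mean of all features of a gene, Adamts12, Adamts16 and Mmp24 overlapped, while Adamts2 then lay above.

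Several marker lists of other cell types differed between the groups, and apart from the 2 covariate fits given here their part in the members' differences was not tested. The smooth muscle marker list (Acta2, Tagln, Myh11, Cnn1 and Actg2, all 5 above the array median on every array) had a mean log2 difference from the control mean of 0.16 to 0.37 in LOF 9 h lungs, 0.13 to 0.25 in LOF 6 h lungs, -1.33 to -0.12 in GOF 9 h lungs and -0.04 to 0.05 in control lungs. Its summed signal on the log2 scale was 14.27 to 14.53 in LOF 9 h lungs, 14.33 to 14.42 in LOF 6 h lungs, 12.93 to 14.22 in GOF 9 h lungs and 14.17 to 14.25 in control lungs. The GOF array lowest for that list was the lowest GOF array for 14 of the 21 brighter members, Timp2, Mmp11, Mmp14 and Adamts2 among them, and the highest for 5, Mmp23, Adamts1, Adamts4, Adamts9 and Adamts14. With the list as a covariate, chosen after seeing the data, the LOF 9 h against GOF 9 h difference was 0.49 for Timp2 (limma adjusted p = 0.688), 0.29 for Mmp14 (limma adjusted p = 0.875), -0.64 for Adamts18 (limma adjusted p = 0.857) and 1.17 for Mmp23 (limma adjusted p = 0.585). It was thus smaller in size than without the list for Timp2, Mmp14 and Adamts18 and larger for Mmp23.

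The heart marker list, 7 of its 9 genes above the median on every array, lay at -0.42 to 0.62 relative to the control mean in LOF 9 h lungs, 0.67 to 1.60 in LOF 6 h lungs, -1.19 to -0.42 in GOF 9 h lungs and -0.52 to 0.56 in control lungs. Its summed log2 signal was 12.56 to 13.31 in LOF 9 h lungs, 13.39 to 14.25 in LOF 6 h lungs, 11.15 to 12.07 in GOF 9 h lungs and 12.28 to 13.50 in control lungs. Between LOF 9 h and GOF 9 h lungs the median difference of its genes was 1.10, with 8 of 9 higher in LOF 9 h lungs. With the heart list as a covariate the LOF 9 h against GOF 9 h difference was 0.57 for Timp2 (limma adjusted p = 0.424), 0.65 for Mmp14 (limma adjusted p = 0.488), 0.50 for Mmp23 (limma adjusted p = 0.706) and -1.27 for Adamts18 (limma adjusted p = 0.531).

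The neural list, all 4 measured genes above the median on every array, lay at -0.38 to 0.30 in LOF 9 h lungs, 0.42 to 1.20 in LOF 6 h lungs, -0.71 to 0.08 in GOF 9 h lungs and -0.09 to 0.07 in control lungs. Its summed log2 signal was 6.41 to 7.09 in LOF 9 h lungs, 7.19 to 7.95 in LOF 6 h lungs, 6.12 to 7.04 in GOF 9 h lungs and 6.77 to 6.92 in control lungs. By mean difference, the LOF 6 h arrays thus stood above all control arrays for the heart, neural and smooth muscle lists. By summed signal they did so for the neural and smooth muscle lists, while the heart list overlapped with control. The endothelial list, all 5 genes above the median on every array, lay at -0.04 to 0.38 in LOF 9 h lungs, -0.07 to 0.06 in LOF 6 h lungs, -0.33 to -0.10 in GOF 9 h lungs and -0.03 to 0.04 in control lungs, and all 5 genes had a higher mean in LOF 9 h than in GOF 9 h lungs. Its summed log2 signal was 10.94 to 11.04 in LOF 9 h lungs, 10.68 to 10.84 in LOF 6 h lungs, 10.60 to 10.65 in GOF 9 h lungs and 10.76 to 10.90 in control lungs. The macrophage list, 5 of its 6 genes above the median on every array, overlapped with control by mean difference in every group. Its summed log2 signal lay above all control arrays in both LOF groups and below them in GOF 9 h lungs. That signal was 10.52 to 10.60 in LOF 9 h lungs, 10.61 to 10.80 in LOF 6 h lungs, 10.13 to 10.19 in GOF 9 h lungs and 10.24 to 10.40 in control lungs. By mean difference, the mesenchymal list lay below all control arrays in LOF 9 h and GOF 9 h lungs (-0.20 to -0.12 in LOF 9 h, -0.23 to -0.10 in GOF 9 h and -0.02 to 0.02 in control lungs). In LOF 9 h lungs, however, 4 of its 6 genes were higher than control, with a median of 0.06, and Foxf1 was the lowest at -1.22. In GOF 9 h lungs 5 of the 6 were lower. The summed log2 signal of the mesenchymal list overlapped with control in both, at 14.46 to 14.62 in LOF 9 h, 14.14 to 14.45 in GOF 9 h and 14.38 to 14.57 in control lungs. The cartilage list, 3 of its 7 genes above the median on every array, lay above all control arrays in LOF 6 h lungs (0.12 to 0.41, against -0.12 to 0.07 in control lungs).

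The partners of these enzymes were read from lists of activators, other inhibitors, related proteases, substrates and transcription factors. Etv5 was the only one of them that passed the adjusted test against control, with a log2 difference of -2.36 in LOF 9 h lungs (limma adjusted p = 6.39e-04) and -1.87 in LOF 6 h lungs (limma adjusted p = 0.00310). Of 10 activators, 0 passed, and Pcsk6, a proprotein convertase related to furin, had the largest difference in LOF 9 h lungs. Pcsk6 read 6.40, 6.79 and 6.42 in LOF 9 h lungs, 7.61, 7.87 and 7.99 in LOF 6 h lungs, 9.99, 8.03 and 8.49 in GOF 9 h lungs and 8.45, 8.09 and 8.56 in control lungs. All LOF 9 h arrays lay below all LOF 6 h arrays and these below all control arrays, with a LOF 9 h difference from control of -1.83 ± 0.41 (limma adjusted p = 0.243) and from GOF 9 h lungs of -2.30 ± 0.41 (limma adjusted p = 0.0587). Furin itself differed from control by -0.002 ± 0.16 in LOF 9 h lungs and by 0.10 ± 0.16 in LOF 6 h lungs.

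Of the 18 related proteases, Tll1, a tolloid enzyme that also trims procollagen, had a difference from control of 1.25 ± 0.31 in LOF 9 h lungs (limma adjusted p = 0.276) and of 0.97 ± 0.31 in GOF 9 h lungs (limma adjusted p = 0.894), over a dim control signal of 2.44. Adam8, a membrane protease, differed by -1.19 ± 0.36 in LOF 6 h lungs (limma adjusted p = 0.320), and Ctsk, a collagen-cutting cathepsin, by 1.21 ± 0.41 in GOF 9 h lungs (limma adjusted p = 0.955). Among the other inhibitors, the serpin gene Serpine2 differed by 0.63 ± 0.19 in LOF 6 h lungs (limma adjusted p = 0.335) and Spock1 by -0.73 ± 0.26 in GOF 9 h lungs, a dim gene. The activator gene Plat, which codes for a plasminogen activator, differed by 0.46 ± 0.17 in LOF 6 h lungs (limma adjusted p = 0.441). The ETS factor Ets1 differed by 0.51 ± 0.14 in LOF 9 h lungs (limma adjusted p = 0.335). Of the 6 ADAMTS-like genes, which lack a protease domain, Thsd4 differed by -1.17 ± 0.27 in GOF 9 h lungs (limma adjusted p = 0.620) and by 1.49 ± 0.27 between LOF 9 h and GOF 9 h lungs (limma adjusted p = 0.0599). Of the 22 measured substrates, 17 had a positive and 5 a negative difference in LOF 9 h lungs, with a median of 0.13 and 0 calls.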

How the data were processed

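The deposited values are log2 signal intensities of 62976 features on 12 Agilent one-colour arrays. Per the methods, the authors corrected spot signals by NormExp on the negative control spots, took logarithms and quantile-normalized them. The labels name limma without a version. Of the features, 31465 carried 1 gene symbol and 31511 none or several. In all, 10 values were missing. The brightest feature by mean signal over all arrays stood for each of 20738 genes. A limma model (version 3.58.1, R 4.3.3) with 4 group means and 8 residual degrees of freedom was fitted to all genes, p-values were adjusted by Benjamini-Hochberg over all genes of a comparison, and 0.05 was the threshold. The fit was tested on simulated data. The p-values rest on the spread of arrays within groups, pooled over the 4 groups and moderated across all genes. With 3 arrays per group the precision is limited. Control arrays are shared by the comparisons. Values are given on every array for all Timp genes, the 5 members with the highest mean, and the 3 with the smallest p in each direction of each comparison. From the lists of partners, genes that were called and the 2 with the smallest p in each direction against control are given. Of the AP-1 genes, Jun is given with its values, which had been seen before it was named. The members and lists were chosen with earlier results of these data known. The methods describe the slide format and the scanner, but which array lay on which slide or scan was not given in the sources used here.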

Additional observations from a re-analysis of the deposited data

Results flagged for a closer look

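Timp2 differed in direction from control between LOF and GOF lungs on its brightest feature. With the mean of both features, the LOF 9 h and the GOF 9 h arrays overlapped with control. On the brightest feature, Timp2 lay 0.36 above control in LOF 9 h lungs and 0.27 below it in GOF 9 h lungs on the log2 scale, every array moving the group's way. The difference between the 2 of 0.63 had a limma adjusted p of 0.0728. In LOF 6 h lungs it lay 0.25 above control, which differs by 0.52 from the GOF 9 h value of -0.27, and that difference was not tested. Mmp7, a dim gene, lay 0.56 above control in LOF 6 h lungs and -0.39 relative to control in GOF 9 h lungs, a difference of 0.95 that was not tested either. Only 1 LOF 6 h array of Mmp7, at 3.68, lay above the control range of 2.07 to 2.95. The others, at 2.56 and 2.58, lay inside that range.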

How the results depend on the processing

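Each result was recomputed with other normalizations, features, filters on dim genes, variance models, samples and covariates. Counts of called members stayed at 0, except that in LOF 9 h against GOF 9 h 1 was called with a filter at the 25th or the 50th percentile of gene means and 2 with a trended and robust variance, and that for any difference among groups 1 was called with the filter at the 50th percentile and 2 with the trended variance. Of all genes, these settings called 143, 452 and 500 in LOF 9 h against GOF 9 h, where the main count was 58, and for any difference among groups the filter at the 50th percentile and the trended variance called 333 and 524, where it was 55. In LOF 9 h against GOF 9 h the called members were Timp2 under each of the 3 settings (adjusted p = 0.0407, 0.0129 and 0.000339) and Adamts18 with the trended variance (0.0342). The median of the members moved to 0.004 in LOF 9 h against GOF 9 h with every feature on its own, to 0.161 in LOF 9 h against control with the filter at the 50th percentile, and, with the smooth muscle list as a covariate, to 0.049 in GOF 9 h against control and -0.03 in LOF 9 h against GOF 9 h, an alternative added after seeing the data. With the mean of all features, Mmp21 over both LOF times turned to -0.004 and Timp2 in LOF 9 h against LOF 6 h to -0.006. Leaving out each of the 12 arrays in turn called 0 members throughout, and the Timp2 difference between LOF 9 h and GOF 9 h then ranged over 0.55 to 0.71 with adjusted p of 0.0951 to 0.205. Of 39 single-gene differences, 0 changed sign and 13 moved by over 1.5 times when 1 array was left out. Beside those given with their genes, Adamts15 in GOF 9 h against control ranged over 0.10 to 0.72, Adamts6 in LOF 9 h against GOF 9 h over -1.32 to -0.51 and Mmp24 in GOF 9 h against control over 0.20 to 0.83. In GOF 9 h against control, Adamts6 ranged over 0.22 to 1.03 and Mmp13 over -0.74 to -0.35. In LOF 9 h against LOF 6 h, Adamts10 ranged over 0.43 to 0.98 and Adamts2 over 0.315 to 0.83. Mmp7 there ranged over -1.03 to -0.42 and Timp2 over 0.04 to 0.15. With the replicate number as a block, 0 members were called and the LOF 9 h against GOF 9 h median stayed at 0.105, while all-gene calls there numbered 22. Arrays of the same number had a mean correlation of 0.048 of their deviations, above 0.1 in 3 of 18 pairs, against -0.024 and 0 of 36 for arrays of different numbers. The 6 pairs of number 1 lay at 0.084 to 0.103, above all 36 pairs of different numbers (highest 0.066), while those of numbers 2 and 3 reached down to -0.003. The cut-off of 0.1 was a choice and cannot settle whether arrays of the same number were handled together. The main fit used no block, and the fit with the number as a block is the one given above. The causes were not tested. Background correction and the slide as a block could not be run on the deposited values.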
